A study of Saccharomyces cerevisiae with 4 samples.

Results

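Polysomal RNA was set against sub-polysomal RNA within DTT-treated cells of Saccharomyces cerevisiae, to see which transcripts carried many ribosomes while protein folding in the endoplasmic reticulum (ER) was disturbed. The 2 samples titled as DTT-treated, polysomal and sub-polysomal, were chosen from the 4 samples of the series by their titles. Both came from strain BY4741, a MATa laboratory strain that the labels give as his3Δ1 leu2Δ0 met5Δ0 ura3Δ0. Cultures in YEPD medium of pH 5.4 at 30 °C reached an OD600 of 0.5 and then took 2 mM DTT for 1 h. Cycloheximide at 0.1 mg/mL followed, and lysates were spun through sucrose gradients of 15 to 60%. Fractions of 0.5 mL were joined by their absorbance into a polysomal and a sub-polysomal sample, and material of 3 gradients was pooled for each. Each pool went onto 1 Affymetrix yeast array, so every value below is from n = 1 array a side and no p-value could be given. Lysis and gradient buffers held 0.5 mM DTT.

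A transcript in translation holds several ribosomes at once and sinks deep into a sucrose gradient, whereas free messenger particles and transcripts with few ribosomes stay near the top. Cycloheximide freezes ribosomes in place, so the split between heavy and light fractions records loading at the time of lysis. DTT keeps disulphide bonds from forming in the ER. The sensor Ire1 then cuts an intron out of the HAC1 transcript, and Hac1 protein switches on genes for folding, glycosylation and transport.

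Loading was measured as polysomal over sub-polysomal intensity on the log2 scale, with the median of the measured probe sets set to 0 on either array. Of 6504 probe sets that name 1 gene, 4574 lay above the 40th percentile of both arrays (an intensity of 15.9 in polysomal and 22.6 in sub-polysomal RNA). They gave values for 4277 genes. Ratios and folds below are given after this centring, intensities as deposited. A ratio of 0 therefore means the loading of the middle probe set, not an equal number of molecules in the fractions. The sole measure of error comes from genes read by several probe sets, whose ratios had a pooled SD of 0.34 on the log2 scale (187 genes with 484 probe sets). It does not cover differences between cultures, gradients or arrays, and since the arrays were washed and scanned apart, array run and fraction cannot be told apart.

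The genes that the strain label names as deleted were read as a check. URA3 read 0.3 in polysomal and 0.3 in sub-polysomal RNA, and the 3 probe sets of LEU2 read 0.2 to 9 in polysomal and 1.3 to 6.6 in sub-polysomal RNA, all below the floor. MET5, which the label names as deleted, read 149.5 in polysomal and 165.8 in sub-polysomal RNA, whereas MET17 read 0.9 and 0.4. HIS3 was read at 160.2 and 40 in polysomal RNA by its 2 probe sets, against 182.7 and 46.5 in sub-polysomal RNA. MET5 and HIS3 thus gave signal above the floor although the label names both; his3Δ1 is known to remove only part of HIS3. As background, BY4741 is commonly described with a deletion of MET17, also called MET15, and what the MET5 of the label stands for was not tested.

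Most transcripts differed little between the fractions. The median ratio over 4277 genes was 0.06, the quartiles were -0.35 and 0.44, and the extremes were 2.04 and -4.02. At least 2-fold higher in polysomal RNA were 188 genes (4.4%), and at least 2-fold lower were 179 (4.19%), together 8.58%. These shares are the background against which each gene group is read. The split between higher and lower calls depended on the scaling: it was 100 to 174 under loess scaling, 108 to 170 under quantile scaling, 59 to 379 with no centring and 829 to 34 when centred on spiked hybridisation controls. Loess scaling takes out the trend of the ratio with brightness. The direction of a small ratio is therefore relative to the other transcripts only.

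**Figure D1:**
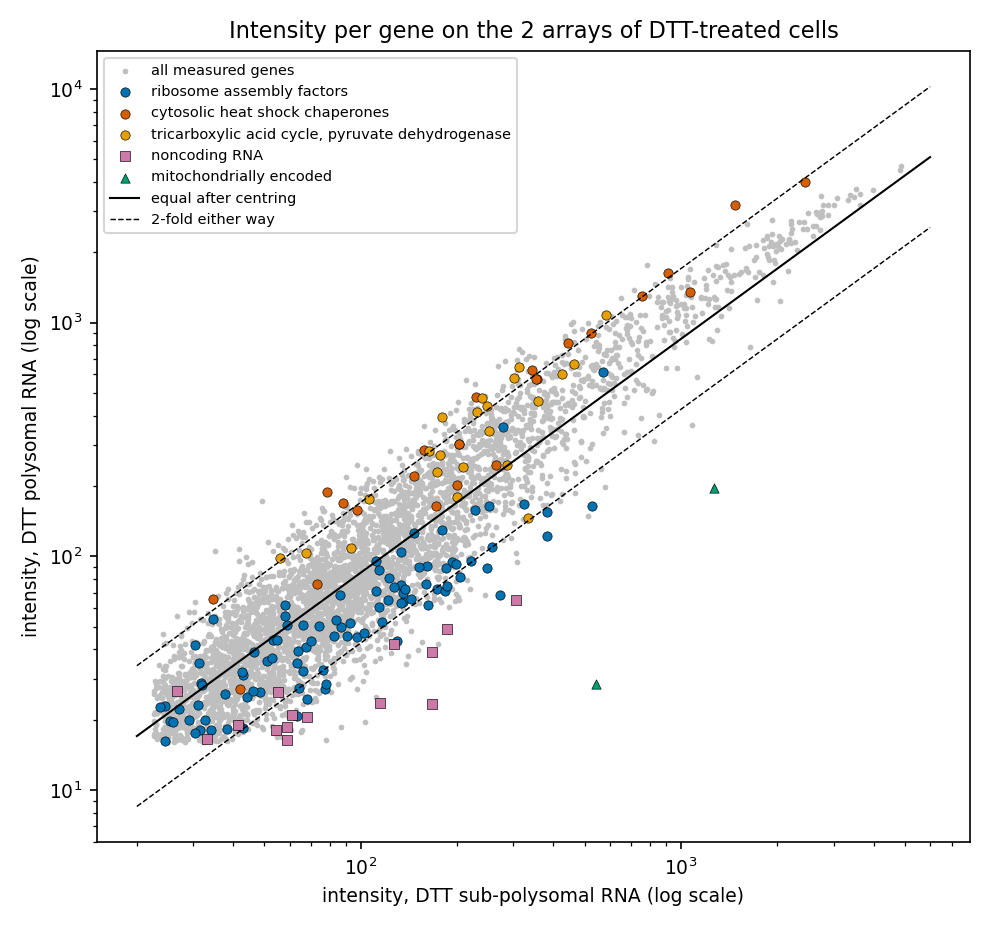
Intensity of each of 4277 genes in DTT polysomal RNA (vertical, log scale) against DTT sub-polysomal RNA (horizontal, log scale), with 1 point a gene. The solid line marks a ratio of 0 after centring and the dashed lines 2-fold either way. Most noncoding RNA, OLI1, COX1 and many ribosome assembly factors lie below the solid line. Above it lie 22 of 23 cytosolic heat shock chaperones.

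RNAs that cytosolic ribosomes do not translate served as a check of the fraction labels, and most of them lay on the sub-polysomal side. OLI1, the mitochondrial gene for a subunit of the ATP synthase ring, read 28.5 in polysomal and 541.8 in sub-polysomal RNA, 16.2-fold lower in polysomal RNA and the lowest ratio of all genes. Its second probe set, at 1.8 in polysomal and 0.7 in sub-polysomal RNA, was below both floors, and the mean with it was -1.10 for OLI1 with no floor. COX1, the mitochondrial gene for a cytochrome oxidase subunit, read 196.4 in polysomal and 1265 in sub-polysomal RNA, 5.48-fold lower. Mitochondrial transcripts are read inside the organelle by its own ribosomes. Of 14 probe sets for 8 mitochondrially encoded proteins, 8 lay above the floor in sub-polysomal RNA and 2 of those in polysomal RNA. COX3 read 3 in polysomal and 46.5 in sub-polysomal RNA, at least 2.49-fold lower when its polysomal value is raised to the floor. ATP6, at 0.4 in polysomal and 40.6 in sub-polysomal RNA, was at least 2.17-fold lower.

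Small nucleolar RNAs, which guide the modification of ribosomal RNA in the nucleus, gave the same picture. All 6 that were measured had ratios below 0, from -2.61 to -0.83, with a median of -1.52, and 5 were at least 2-fold lower. SNR5 read 23.4 in polysomal and 167.6 in sub-polysomal RNA (-2.61), and SNR8 read 23.6 and 114.5 in the same order (-2.05). SNR44 stood at -1.70, SNR70 at -1.35, SNR33 at -1.31 and SNR51 at -0.83. A further 11 probe sets for small nucleolar RNAs were above the floor in sub-polysomal RNA only, among them SNR11 at 12.7 in polysomal and 96.7 in sub-polysomal RNA. RPR1, the RNA of ribonuclease P, read 2.2 in polysomal and 81.1 in sub-polysomal RNA, at least 4.34-fold lower. The brighter of the 2 probe sets for the telomerase RNA TLC1 read 9.6 and 47.7 in the same order, at least 2.55-fold lower. Over 171 probe sets for tRNA, small RNA and other noncoding RNA, 159 had a centred ratio below 0 (93%), against 50.4% of the 6329 other probe sets read above 0 on both arrays. Of the 171, 19 lay above the floor in polysomal and 63 in sub-polysomal RNA, and 106 lay below it on both. Ribosomal RNA could not be placed on a side, since 5 of its 6 probe sets lay below the floor on both arrays. The remaining one, RDN5-1, was just above the floor of 15.9 in polysomal RNA only (17.5 in polysomal and 3.8 in sub-polysomal RNA). Of the 6, 2 had the higher deposited value in sub-polysomal RNA.

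Probe sets above the floor on 1 array only were counted apart. There were 293 above it in polysomal RNA only and 218 in sub-polysomal RNA only. With the dim side raised to the floor, 6 of the 293 and 52 of the 218 were at least 2-fold apart. Of the 52, 23 were for noncoding RNA, and of the 6, 0 were. The 2 counts cannot be compared, since the floors differ after centring. The floor was 15.9 against a median of 75.9 over measured probe sets in polysomal RNA, and 22.6 against 89.2 in sub-polysomal RNA. A 2-fold bound was therefore reached at a value nearer to the floor on the sub-polysomal side. GCN1, whose protein activates the kinase Gcn2, had the highest such bound on the polysomal side (47.6 in polysomal and 17.1 in sub-polysomal RNA, at least 2.48-fold higher). On the sub-polysomal side GPX1, a peroxidase gene, read 7.7 in polysomal and 64.8 in sub-polysomal RNA, at least 3.47-fold lower. The highest bound there belonged to a second probe set of the ribosomal protein gene RPL7A, at 12.6 in polysomal and 147.2 in sub-polysomal RNA (at least 7.88-fold lower). The other 2 probe sets of RPL7A were measured and gave 0.95, so the probe sets of this gene disagree. GCN1 had measured probe sets too, with a ratio of 1.27. These 3 genes were picked after their values were seen.

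The extremes are given among 3434 bright genes, those above the median of all probe sets on both arrays (26.8 in polysomal and 36.7 in sub-polysomal RNA). Their 20 highest ratios ran from 1.39 to 2.04. IDP1, the mitochondrial NADP-specific isocitrate dehydrogenase, read 172.5 in polysomal and 49.2 in sub-polysomal RNA, 4.12-fold higher. HXK1, a hexokinase, read 567.5 in polysomal and 212.6 in sub-polysomal RNA, 3.14-fold higher. VAC8, a vacuolar membrane protein that takes part in vacuole inheritance, read 107.9 and 41.8 in the same order, 3.03-fold higher. The 3 are given as the highest of the ranking.

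SEC23, a subunit of the COPII coat, read 244.8 in polysomal and 97.1 in sub-polysomal RNA (1.57), and SFB3, a cargo-binding coat subunit of the same kind, read 544.4 and 228.3 (1.49). CDC48, the ATPase that pulls ubiquitinated proteins out of the ER membrane, read 650.3 and 268 (1.51). DPM1, which makes the mannose donor dolichol phosphate mannose, read 686.9 and 283.2 (1.51). HSP42, a small heat shock protein gene, stood at 1.49, the proline synthesis gene PRO3 at 1.47 and RNQ1, the gene of a prion protein, at 1.43. VMA1, a subunit of the vacuolar ATPase, was 1.42 (1.23 and 1.61 by its 2 probe sets), spermidine synthase SPE3 1.41, the elongation complex subunit LEO1 1.41, homoserine kinase THR1 1.41 and the endocytosis gene SYP1 1.40. YMR315W (1.54), YMR099C (1.51), AIM9 (1.44), AIP5 (1.43) and TVS1 (1.39) complete the 20.

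The 20 lowest bright genes ran from -4.02 to -1.41. After OLI1 and COX1 came YOR338W, at 42.1 in polysomal and 174.3 in sub-polysomal RNA (-1.82). UTP18, a factor that processes small subunit ribosomal RNA, read 68.2 and 273.1 (-1.77). RAS1, a GTPase of the cyclic AMP pathway, read 34.6 in polysomal and 138.1 in sub-polysomal RNA (-1.76), while the sister gene RAS2 read 239.9 and 232.3 (0.28). RAS2, HXK2 and RPL22A are named as partners of genes in the extremes, after their values were seen. CBP1, needed for the mitochondrial COB transcript, stood at -1.70 and LSM8, of the nuclear LSm ring, at -1.67.

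CPA1, a subunit of carbamoyl phosphate synthetase whose transcript carries an upstream open reading frame that responds to arginine, read 68.4 in polysomal and 244.7 in sub-polysomal RNA, 3.04-fold lower. OAZ1, the ornithine decarboxylase antizyme, whose full product needs a ribosomal frameshift that polyamines promote, read 32.1 and 103.6 (-1.46). The glyoxylate enzyme ICL1 stood at -1.62, the allantoate permease DAL5 at -1.61, the arginine methyltransferase HMT1 at -1.47, the GTPase NOG1 of large subunit assembly at -1.45 and the fatty acid regulator OAF1 at -1.41. RPL22B (-1.54), the snoRNA SNR44 (-1.70), RBH1 (-1.57), YPL088W (-1.47), THI22 (-1.41) and YOR062C (-1.41) complete the 20.

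**Figure D2:**
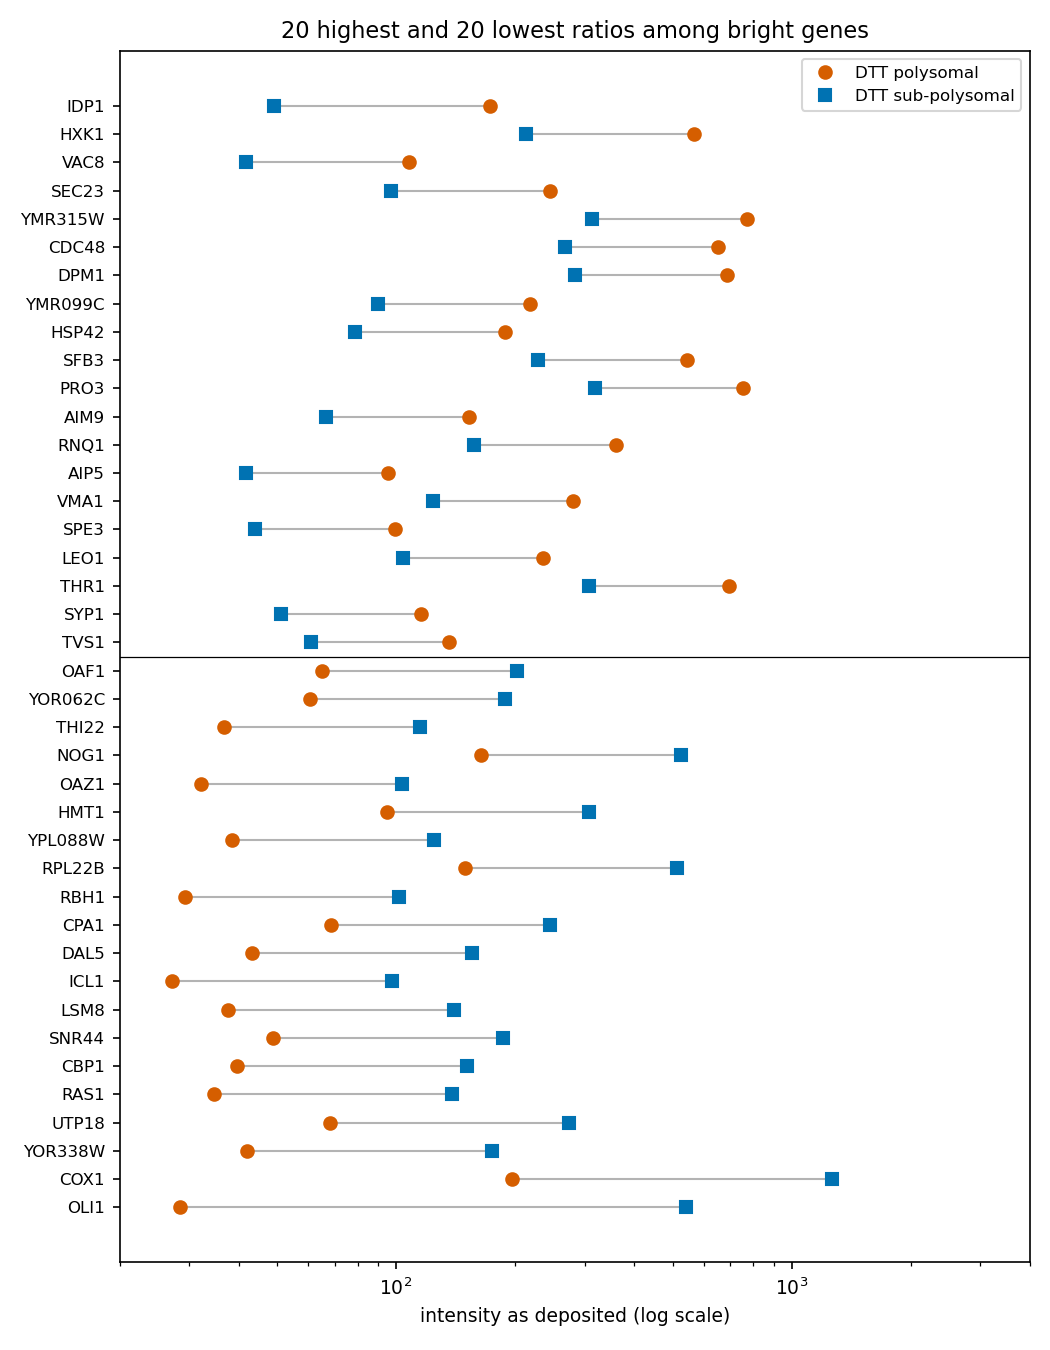
Deposited intensity (log scale) in DTT polysomal (circles) and DTT sub-polysomal RNA (squares) of the 20 genes with the highest and the 20 with the lowest ratio among genes above the median of all probe sets on both arrays, 1 row a gene. The rows of the upper block have the polysomal value to the right, from IDP1 at 172.5 and 49.2, and those of the lower block the sub-polysomal value, down to OLI1 at 28.5 and 541.8.

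Signalling genes of the unfolded protein response lay on both sides of the middle, from -0.31 for HAC1 to 0.71 for PTC2. Their median was 0.10 over 4 measured of 6, with 0 at least 2-fold higher or lower. HAC1 had a ratio of -0.31 as the mean of 4 probe sets that disagree. They read 401.3, 193.1, 377.3 and 93.3 in polysomal RNA, against 423.1, 220.8, 641 and 206.2 in sub-polysomal RNA, which gives 0.16, 0.04, -0.53 and -0.91. The remaining probe set was below the floor on both arrays. The files do not say which of the probe sets lie in the intron. The phosphatase gene PTC2, which acts on Ire1, stood at 0.71, the kinase gene SLT2 at -0.03 and the acetyltransferase gene GCN5 at 0.22. IRE1 read 18.5 in polysomal and 21.7 in sub-polysomal RNA and was below the sub-polysomal floor. INO1, for inositol synthesis, read 19.1 in polysomal and 31.1 in sub-polysomal RNA (-0.47).

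Transcripts for folding in the ER lay on the polysomal side of the middle, mostly by less than 2-fold. Of 37 measured genes for ER folding and quality control, 32 lay above the all-gene median. Their own median was 0.42 (0.29 under loess scaling). At least 2-fold higher were 3 (8.11%, against 4.4% of all genes), and 1 was lower (2.70%, against 4.19%). KAR2, the main Hsp70 of the ER, read 2286.5 in polysomal and 2068 in sub-polysomal RNA (0.38). Its co-chaperone SCJ1 read 432 and 275 (0.89), its exchange factor SIL1 453 and 575 (-0.11). Members of the same Hsp70 cycle thus lay on both sides of 0. The disulphide isomerase PDI1 read 1596 in polysomal and 1405 in sub-polysomal RNA (0.42), the related EUG1 181 and 109 (0.97), and the oxidase ERO1 187.6 and 193.4 (0.19). All 7 oxidases and isomerases lay above the all-gene median, against 4 of 7 under loess scaling, where their median was 0.11. The side of the bright KAR2, PDI1 and ERO1 turned with the scaling, since under loess scaling they had -0.03, -0.01 and -0.03. Among the other folding enzymes, ROT2, the glucosidase II that trims N-glycans, had 1.15, the prolyl isomerase CPR5 1.03 and the glucosidase CWH41 0.83. CNE1, the calnexin, had 0.29, KRE5 0.16 and ROT1 0.06.

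In ER-associated degradation, which extracts misfolded proteins for the proteasome, the median was 0.40 over 15 of 16 genes. CDC48 was the 1 gene at least 2-fold higher. MNL1, the mannosidase that marks misfolded glycoproteins, read 78.7 in polysomal and 198.6 in sub-polysomal RNA (-1.10) and was the 1 gene at least 2-fold lower. The rhomboid-like DFM1 (0.53) and the ligase gene HRD1 (0.51) were next below CDC48. The glycanase gene PNG1 (-0.21) and the recruitment factor UBX2 (0.03) were next above MNL1.

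Entry into the ER and sugar attachment gave broader spreads. Translocon and signal recognition particle genes had a median of 0.41 over 20 genes (0.22 under loess scaling), with GET3, an ATPase that inserts tail-anchored proteins, at 1.01, the translocon subunits SEC66 and SEC72 at 0.86 and 0.79, and SBH1, SRP68 and SRP72 at -0.44, -0.38 and -0.37. The 3 measured signal peptidase subunits ran from 0.20 for SPC2 to 0.67 for SEC11. The oligosaccharyltransferase, which moves the glycan onto proteins, had a median of 0.37 over 9 subunits. WBP1 was at least 2-fold higher (595 in polysomal and 342 in sub-polysomal RNA, 1.03). OST4, a very small subunit, was at least 2-fold lower (365 and 1085, -1.34). Subunits of this enzyme thus lay past 2-fold on both sides, and the group median was -0.03 under loess scaling.

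The ALG enzymes that build the glycan had 0 of 14 below 0 and a median of 0.33, with DPM1 at 1.51, the mannosyltransferase ALG12 at 1.26 and ALG7, the first enzyme of the pathway, at 0.96. Protein O-mannosylation had a median of 0.37 over 12 (0.08 under loess scaling), from PMT1, a mannosyltransferase of the ER, at 1.03 to the Golgi enzyme MNN1 at -0.74. GPI anchor synthesis lay nearer to the middle, at 0.15 over 19 (0.04 under loess scaling), with 0 at least 2-fold higher. The mannosyltransferase GPI18 was its 1 gene at least 2-fold lower (-1.03), next to SPT14, the catalytic subunit of the first step, at -0.89. The transamidase gene GPI8 had 0.87.

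Vesicle coats were more strongly polysomal. All 10 COPII genes lay above the all-gene median, with a median of 0.65 and 3 at least 2-fold higher (against 4.4% of all genes): SEC23, SFB3 and SEC31, the outer coat subunit, at 1.12. SFB2 (0.11), SED4 (0.18) and SEC13 (0.42) were lowest. All 13 genes of the COPI coat and Arf lay above it as well, with a median of 0.69; SEC27 was at 1.27, the GTPase activator GCS1 at 1.05 and GEA2 at 0.20. Under loess scaling these medians were 0.55 and 0.37, with 8 of 10 and 13 of 13 above the all-gene median. With that scaling 2 and 1 were at least 2-fold higher, against 100 of all 4277 genes. Cargo receptors had a median of 0.37 over 16 (0.23 under loess scaling), and ERP5 was lowest (-0.51). The 2 at least 2-fold higher, against 4.4% of all genes, were ERV29 (1.28) and the retrieval receptor RER1 (1.09). SNAREs and tethers, which fuse the vesicles, had a median of 0.08 over 23 and 0 genes past 2-fold, from BET5 at -0.66 to the GTPase YPT1 at 0.90.

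Cytosolic chaperones had the highest median of the 61 groups under the main centring, and ranked below the tricarboxylic acid cycle and the glycerol, trehalose and glycogen genes under loess scaling. Of 23 measured heat shock chaperones 11 were at least 2-fold higher, against 4.4% of all genes, and 0 lower; the median was 0.94, a 1.92-fold higher ratio. Under loess scaling 3 of the 23 were at least 2-fold higher, against 100 of all 4277 genes, and the median was 0.57. SSA2, an Hsp70, read 3183 in polysomal and 1477 in sub-polysomal RNA (1.34). HSP82, the stress-induced Hsp90, read 479 and 228, a 2.46-fold higher ratio. HSP42 led the group, and SSA3, a stress-induced Hsp70, was the 1 member below 0 (-0.40). The co-chaperone genes HCH1 (0.13) and FES1 (0.17) were the next lowest. The chaperones that bind nascent chains at the ribosome had a median of 0.51 over 9 (0.26 under loess scaling), led by ZUO1 (1.12). The CCT chaperonin and prefoldin had 0.42 over 13 (0.13 under loess scaling), with CCT6 at 0.86 and PFD1 at -0.44. The proteasome was at 0.56 over 36 (0.35 under loess scaling). Of the 36, 4 were at least 2-fold higher, against 4.4% of all genes (3 under loess scaling, against 100 of 4277). The 4 were RPT2 (1.16), SCL1 (1.11), RPN1 (1.09) and the assembly factor UMP1 (1.01). The proteasome transcription factor RPN4 was the 1 gene of that group below 0 (-0.24).

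Central metabolism was also on the polysomal side. In the tricarboxylic acid cycle and pyruvate dehydrogenase, 9 of 22 genes were at least 2-fold higher, against 4.4% of all genes. Their median was 0.85. Under loess scaling 2 of 22 were at least 2-fold higher, against 100 of all 4277 genes, and the median was 0.62. LSC1, of succinyl-CoA ligase, read 396 in polysomal and 180 in sub-polysomal RNA (1.37), IDH2 643 and 313 (1.27), and LPD1, the dihydrolipoamide dehydrogenase shared by several complexes, 475 and 240 (1.22). CIT2, the peroxisomal citrate synthase, read 145 and 334 (-0.97) and was the 1 gene below 0. Glycerol, trehalose and glycogen genes had a median of 0.79 over 17 (0.61 under loess scaling). Of the 17, 5 were at least 2-fold higher, against 4.4% of all genes (3 under loess scaling, against 100 of 4277). Among the 5 were the glycerol phosphatase GPP2 (1.25) and the phosphoglucomutase PGM2 (1.21). The trehalose synthesis genes TPS2 (1.11) and TPS1 (1.04) were also among the 5. Debranching enzyme GDB1 was at 1.00, and TPS3 (0.04) was lowest.

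All 19 measured glycolytic genes lay above the all-gene median, with a median of 0.56. PGK1 read 3548.5 in polysomal and 3621 in sub-polysomal RNA (0.20), and TDH3 3511 and 3364 (0.29). HXK1 was the 1 gene at least 2-fold higher; the other hexokinase HXK2 read 1697 and 1064 (0.91). Under loess scaling the glycolytic median was 0.15, 12 of 19 lay above the all-gene median, and PGK1 (-0.18) and TDH3 (-0.09) were below 0. Thiol redox genes, whose products buffer reductants and peroxides, had a median of 0.56 over 27 (0.34 under loess scaling). At least 2-fold higher were 5 of the 27, against 4.4% of all genes (3 under loess scaling, against 100 of 4277). The 5 were the peroxidase genes GPX2 (1.26), PRX1 (1.18), HYR1 (1.13) and TSA2 (1.01), and the thioredoxin reductase TRR1 (1.07). GTT2 was lowest (-0.86). Vacuolar ATPase subunits had 0.76 over 15 (0.38 under loess scaling). The 4 at least 2-fold higher, against 4.4% of all genes, were VMA1, VMA7 (1.25), VMA2 (1.19) and VMA16 (1.00). Under loess scaling 2 of the 15 were at least 2-fold higher, against 100 of all 4277 genes.

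Amino acid synthesis enzymes under Gcn4 were spread widely. The median was 0.55 over 44 genes (0.38 under loess scaling). At least 2-fold higher were 9 and lower 1, against 4.4% and 4.19% of all genes. Under loess scaling 2 were higher and 1 lower, against 100 and 174 of all 4277 genes. PRO3, THR1 and the glutamate dehydrogenase GDH1 (1001 in polysomal and 462 in sub-polysomal RNA, 1.35) were highest. CPA1, the glutamine synthetase GLN1 (1234 and 2033, -0.49) and LYS4 (-0.42) were lowest. Aminoacyl-tRNA synthetases, which charge tRNA, had a median of 0.68 over 28 (0.46 under loess scaling). Of the 28, 6 were at least 2-fold higher, against 4.4% of all genes, led by GUS1 (1.26), THS1 (1.25) and TYS1 (1.17). Under loess scaling 1 of the 28 was at least 2-fold higher, against 100 of all 4277 genes. The lowest 3, MSM1 (-0.68), MSY1 (-0.62) and NAM2 (-0.58), all charge tRNA in mitochondria. Sulphur amino acid genes were close to the middle (0.08 over 25), with HOM2 (1.12) and SAM2 (1.11) at least 2-fold higher and the sulphate permease SUL2 lower (-1.06). Purine synthesis was at -0.03 over 23 (-0.26 under loess scaling). SHM1 (1.13) was at least 2-fold higher, against 4.4% of all genes. ADE2 (197 in polysomal and 579 in sub-polysomal RNA, -1.32) and HPT1 (-1.20) were at least 2-fold lower, against 4.19%. Under loess scaling 0 of the 23 were higher and 6 lower, against 100 and 174 of all 4277 genes.

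Ribosome assembly factors were the largest group on the sub-polysomal side. Of 97 measured, 86 lay below the all-gene median, 17 were at least 2-fold lower (17.5%, against 4.19% of all genes) and 0 were higher; the median was -0.56. In small subunit assembly UTP18 was followed by UTP6 (20.8 in polysomal and 63.2 in sub-polysomal RNA, -1.37) and UTP9 (27.1 and 77.3, -1.28). In large subunit assembly NOG1 read 163.7 and 526.1, DBP2, an RNA helicase gene, 122.6 and 381.6 (-1.41), and SSF1 43.3 and 130.1 (-1.35). The nucleolar core protein genes NOP1 (0.59) and NOP58 (0.34) and the large ATPase gene REA1 (0.87) were on the other side. These medians were close to the same under loess scaling, at -0.44 and -0.56 for the small and the large subunit. RNA polymerase subunits, many of which also make ribosomal RNA, had a median of -0.09 over 33 (-0.19 under loess scaling) and 0 past 2-fold.

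Ribosomal proteins themselves did not share that position. Cytosolic ribosomal protein genes had a median of 0.32 over 47 genes of the large and 0.28 over 34 of the small subunit. They are among the brightest transcripts, and under loess scaling the medians were -0.09 and -0.14, so that their side of the middle depends on the scaling. RPS1B (1765 in polysomal and 785 in sub-polysomal RNA, 1.40) and RPL9A (268 and 144, 1.13) were at least 2-fold higher. RPL22B, at 149.4 in polysomal and 511.9 in sub-polysomal RNA, was the 1 gene at least 2-fold lower, whereas its duplicate RPL22A read 2343.5 and 2579.3 (0.09). Among 31 pairs of duplicated ribosomal protein genes with both members measured, the median absolute difference in ratio was 0.27, and 2 pairs differed by at least 2-fold, RPL22 and RPL7. In the RPL7 pair at least 1 copy lacks a probe set designed for 1 transcript, and RPL7A itself was -0.36 with no floor, when its dim probe set entered. In 15 of the 31 pairs both members had a probe set designed for 1 transcript; elsewhere the signal of one copy can enter the other.

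Mitochondrial ribosomal proteins, made in the cytosol for the organelle, lay below the middle at -0.20 over 70 genes, with 20 above the all-gene median, MRPS18 (1.01) at least 2-fold higher and MRPL15 lowest (-0.94). Nuclear genes of the respiratory chain and ATP synthase, also imported into mitochondria, had a median of 0.37 over 35 (0.22 under loess scaling), from COX8 at -0.27 to QCR2 at 1.21. Mitochondrial import genes were at 0.13 over 26 (-0.03 under loess scaling), with the pore gene TOM40 (1.11) at least 2-fold higher and the small chaperone gene TIM9 at least 2-fold lower. Transcripts with the same destination were thus found on both sides.

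Transcripts with a described upstream open reading frame, a short reading frame before the main one that can hold ribosomes back, lay toward the sub-polysomal side. Of 24 measured among 30 listed, 22 were below the all-gene median (19 under loess scaling), and the median was -0.34. At least 2-fold lower were 3 and higher 1, against 4.19% and 4.4% of all genes. Besides CPA1 the lower ones were PPR1, an activator of pyrimidine genes (26.8 in polysomal and 72 in sub-polysomal RNA, -1.19), and INO2, an activator of phospholipid genes (41.2 and 107, -1.14). GCN4, the activator of amino acid genes and the best known case, read 587 in polysomal and 1122 in sub-polysomal RNA (-0.70). The kinase gene MKK1 (-0.93), AVT2 (-0.60), WSC3 (-0.55), PET111 (-0.54), HAP4 (-0.47), TIF4631 (-0.47), DCD1 (-0.44), CAD1 (-0.35), ECM7 (-0.34) and SCH9 (-0.31) followed. SLM2 (-0.21), SCO1 (-0.20), CLN3 (-0.19), IMD4 (-0.17), RPC11 (-0.02), YAP1 (-0.01), MBR1 (0.02) and FOL1 (0.04) were near the middle. The polyamine transporter gene HOL1 (0.50) and LEU4 (484 in polysomal and 244 in sub-polysomal RNA, 1.22) were above it. The group median was -0.41 under loess scaling. There 4 of the 24 were at least 2-fold lower and 0 higher, against 174 and 100 of all 4277 genes.

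**Figure D3:**
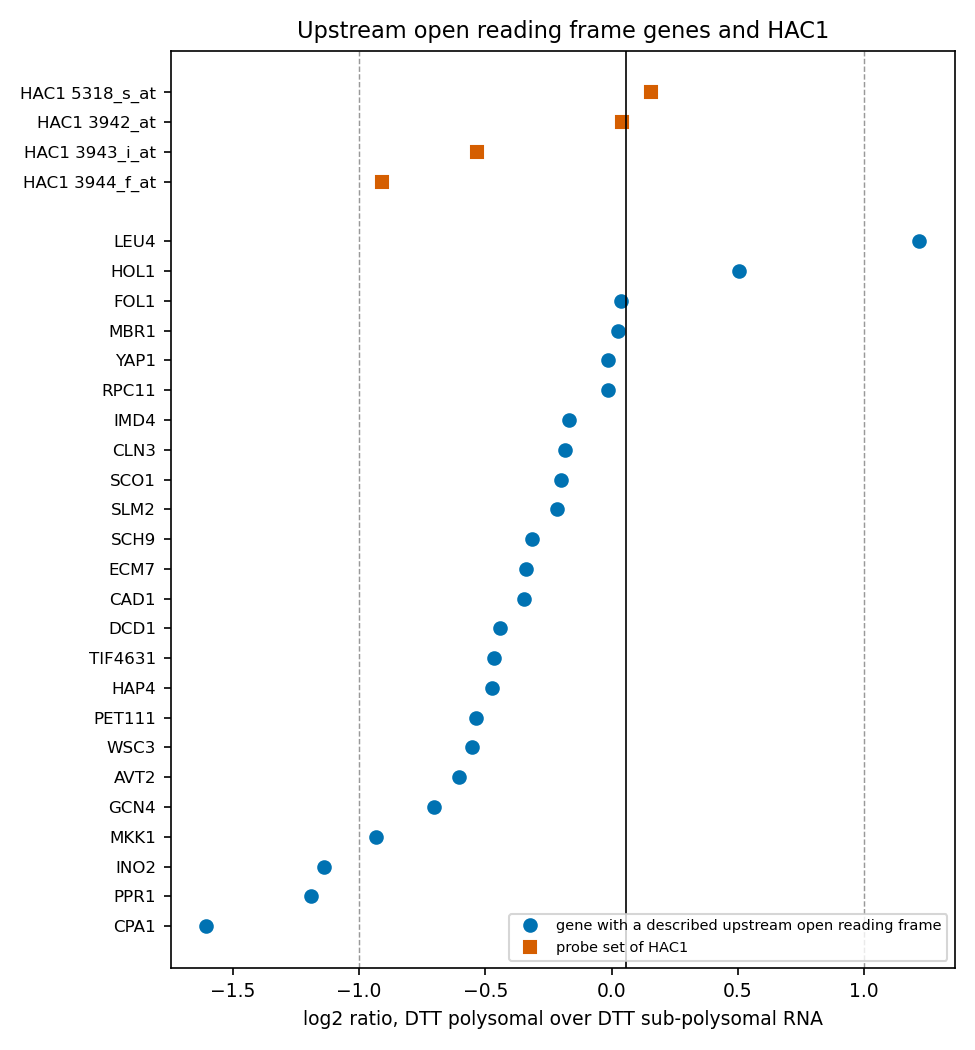
Log2 ratio of DTT polysomal over DTT sub-polysomal RNA for the 24 measured genes with a described upstream open reading frame (circles, 1 value a gene) and for the 4 measured probe sets of HAC1 (squares). The solid line is the all-gene median of 0.06 and the dashed lines are 2-fold; CPA1 lies lowest at -1.61, LEU4 highest at 1.22, and the HAC1 probe sets spread from -0.91 to 0.16.

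Several groups of regulatory genes had medians below 0. Stress and nutrient transcription factors had a median of -0.12 over 30, with 0 past 2-fold, from MET4 (-0.85) to GAT1 (0.91). The cyclin group, which also held the kinase gene CDC28 and the kinase inhibitor gene SIC1, had -0.18 over 12 (-0.42 under loess scaling). CDC28 (0.07) was its 1 member above the all-gene median. The G1 cyclin PCL1 was lowest (312 in polysomal and 825 in sub-polysomal RNA, -1.17). Cell wall integrity signalling was at -0.13 over 15, with the kinase BCK1 (-1.21) at least 2-fold lower. Cell wall proteins and enzymes were at 0.44 over 39 (0.11 under loess scaling). Among those the glucanosyltransferase BGL2 (918 and 465, 1.21) and the glucan synthases GSC2 (1.14) and FKS1 (1.08) were at least 2-fold higher. Snf1, Ras and cyclic AMP genes had a median of 0.35 over 23, in which IRA1 (1.23) and SRV2 (1.11) stood against RAS1. Mating genes were at -0.03 over 25.

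Groups of membrane transporters lay on both sides of the middle. Amino acid permeases had a median of -0.11 over 18 (-0.23 under loess scaling), and MUP3, a methionine permease of low affinity, was lowest (18.6 in polysomal and 86.9 in sub-polysomal RNA, -1.99). MUP1, the high-affinity methionine permease, was highest (302 and 234, 0.60). Hexose transporters had 0.42 over 7, a median that was -0.04 under loess scaling. Plasma membrane pumps and ion transporters had 0.30 over 18, from the zinc transporter ZRT1 (-1.22) to the drug pump PDR5 (0.97), and iron and zinc uptake genes had -0.20 over 25, with ZRT2 (-1.36) lowest and the cell wall mannoprotein FIT2 (1.28) highest. Ergosterol synthesis was at 0.44 over 24 (0.12 under loess scaling), led by ERG4 (1.20), with ERG7 at -0.65. Fatty acid and phospholipid synthesis was at 0.37 over 26 (0.08 under loess scaling), where the fatty acid synthase subunit FAS2 (1.14) and FAA1 (1.11) stood against INO2 and the desaturase OLE1 (329 in polysomal and 732 in sub-polysomal RNA, -0.92).

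The cytoskeleton was on the polysomal side, at 0.55 over 29 (0.29 under loess scaling). At least 2-fold higher were 5 of the 29, against 4.4% of all genes (1 under loess scaling, against 100 of 4277). The 5 were the actin-binding genes SAC6 (1.32) and ABP1 (1.26), the tubulins TUB1 (1.14) and TUB2 (1.07), and ARP2 (1.05). ACT1 read 2356 in polysomal and 2019 in sub-polysomal RNA (0.46), whereas its control probe sets, given below, ran from 0.77 to 1.13. The mRNA decay group had a median of 0.20 over 23 but held PAT1 (1.18) as well as LSM8. Spliceosomal genes were at -0.20 over 18, nuclear pore genes at 0.18 over 30, autophagy genes at -0.09 over 23 and sphingolipid genes at 0.39 over 19 (0.10 under loess scaling). Vacuolar proteases had 0.50 over 17 (0.25 under loess scaling), histones 0.59 over 4 (0.24 under loess scaling) and translation elongation and termination 0.43 over 11 (0.17 under loess scaling). Translation initiation factors, at 0.14 over 26 (0.05 under loess scaling), had 0 genes past 2-fold, from the exchange factor subunit GCD2 (-0.65) to GCD11 of eIF2 (0.85). The exocyst was at 0.16 over 15, with the GTPase gene SEC4 (1.04) at least 2-fold higher, and ribonucleotide reductase and the MCM helicase were at 0.27 over 8, with RNR4 (1.13) at least 2-fold higher.

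**Figure D4:**
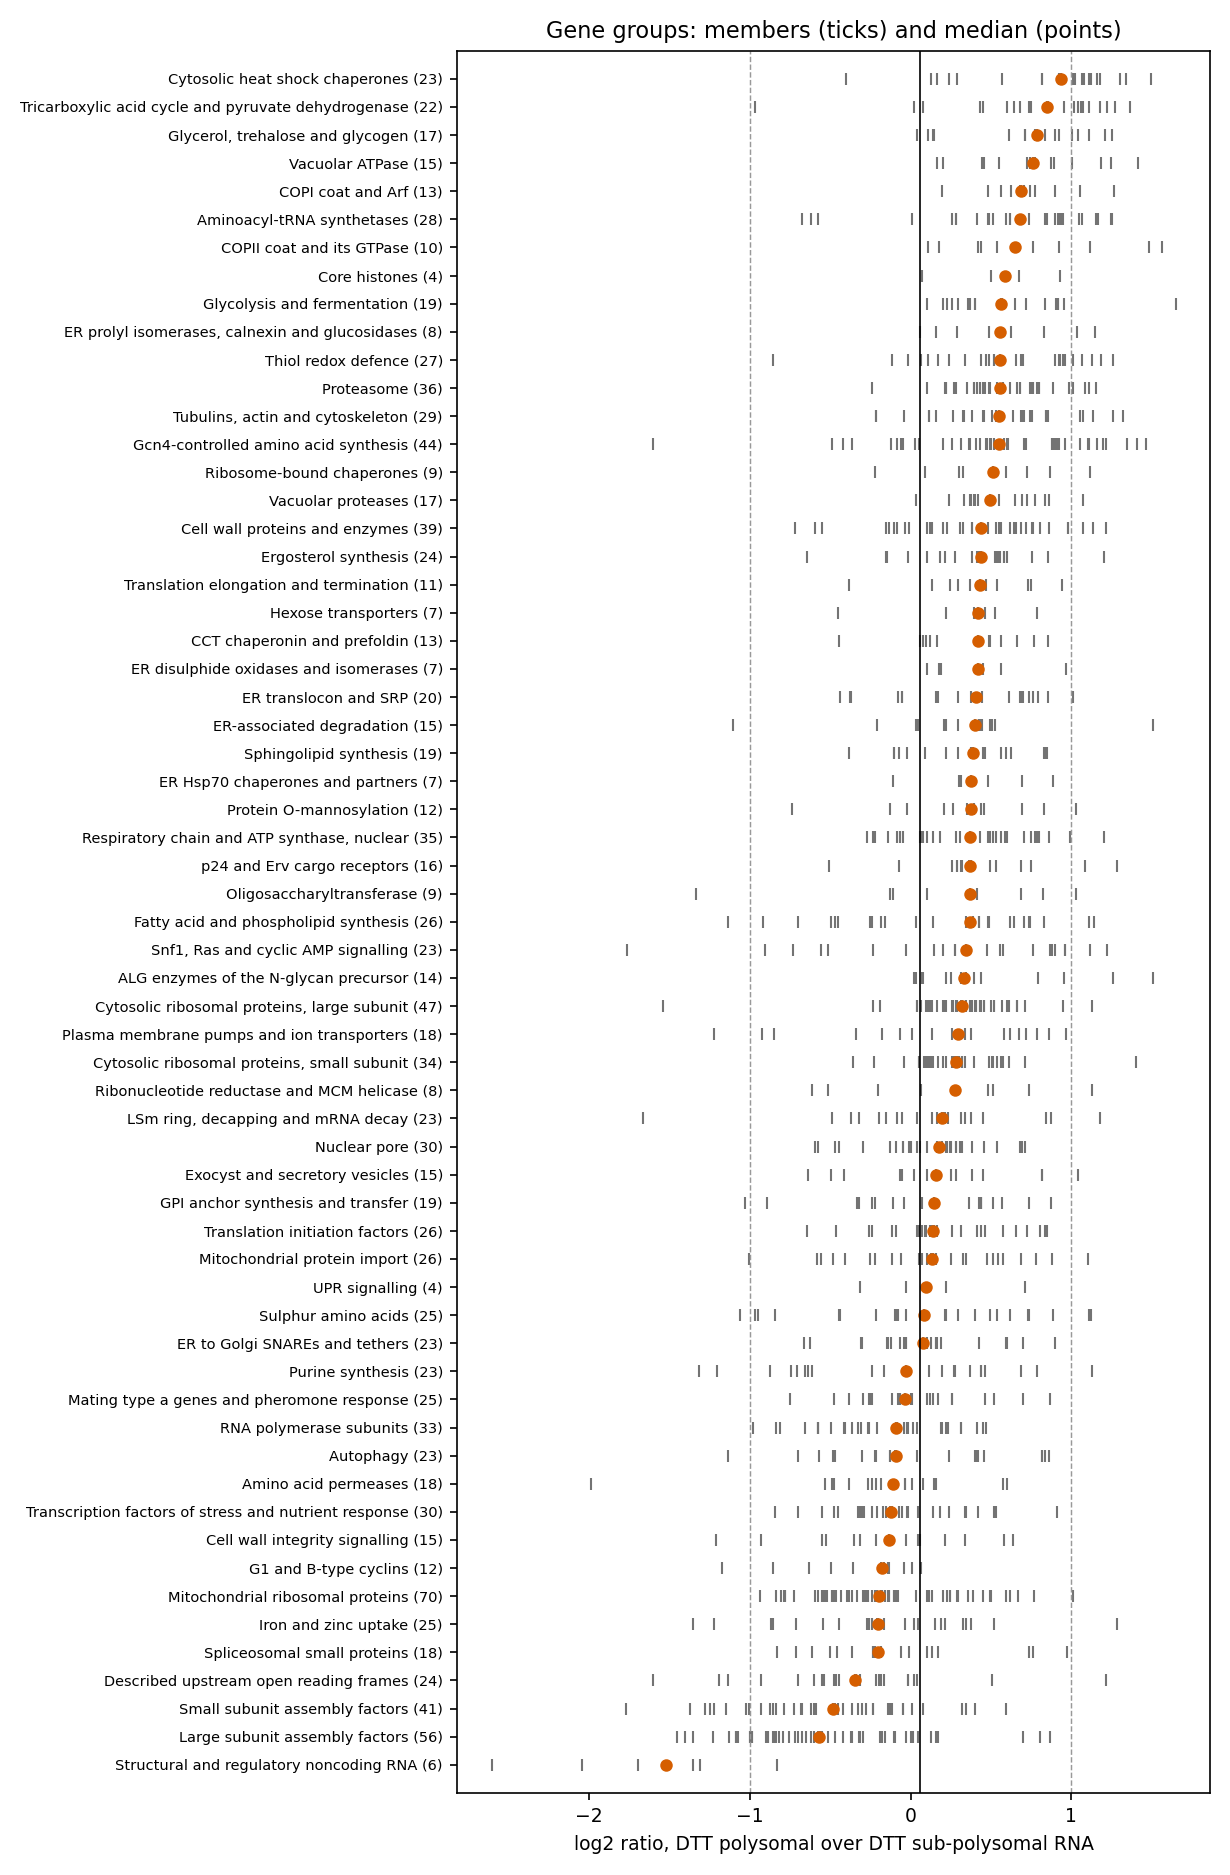
Log2 ratio of DTT polysomal over DTT sub-polysomal RNA for the measured members (ticks) and the median (points) of 61 gene groups, sorted by median, with the number of measured members in brackets. The solid line is the all-gene median of 0.06; cytosolic heat shock chaperones (0.94) are at the top, and large subunit assembly factors (-0.57) and noncoding RNA (-1.52) at the bottom.

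Over 61 groups with at least 4 measured genes, 46 medians lay above the all-gene median and 15 below it. The groups overlap in part and hold genes of known function. Under some scaling or filter the median changed side of the all-gene median for autophagy, both cytosolic ribosomal protein groups, SNAREs, the exocyst, hexose transporters, mating genes, mitochondrial import, the nuclear pore, the oligosaccharyltransferase, purine synthesis, initiation factors and the signalling genes of the unfolded protein response. Brightness moved with the ratio. With genes cut into 5 equal bins by mean intensity, the dimmest bin had a median ratio of -0.19 with 0.701% at least 2-fold higher, and the brightest bin had 0.42 with 10.2% higher. The rank correlation between ratio and mean log2 intensity was 0.36 over 4259 protein-coding genes, which share both arrays and are not replicates. The part of brightness in the group values was not tested beyond the loess medians. There chaperones were at 0.57, the tricarboxylic acid cycle at 0.62, glycerol and trehalose genes at 0.61 and COPII at 0.55, while oligosaccharyltransferase, hexose transporters and ribosomal proteins lay at or below the middle.

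Gene length, from start to stop codon and with introns included, was set against the ratio. Genes under 150 codons had a median of 0.03 and those of 750 codons or more 0.13, with -0.03 for genes from 450 to under 750 codons, and the rank correlation was 0.04. Under loess scaling the shortest bin was at -0.14 and the longest at 0.15, with a rank correlation of 0.10; short genes were brighter (rank correlation of length and mean log2 intensity -0.13). Short genes were rarely among the higher ones: 1.73% of 346 genes under 150 codons were at least 2-fold higher, against 5.46% of 787 genes of 750 codons or more.

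**Figure D5:**
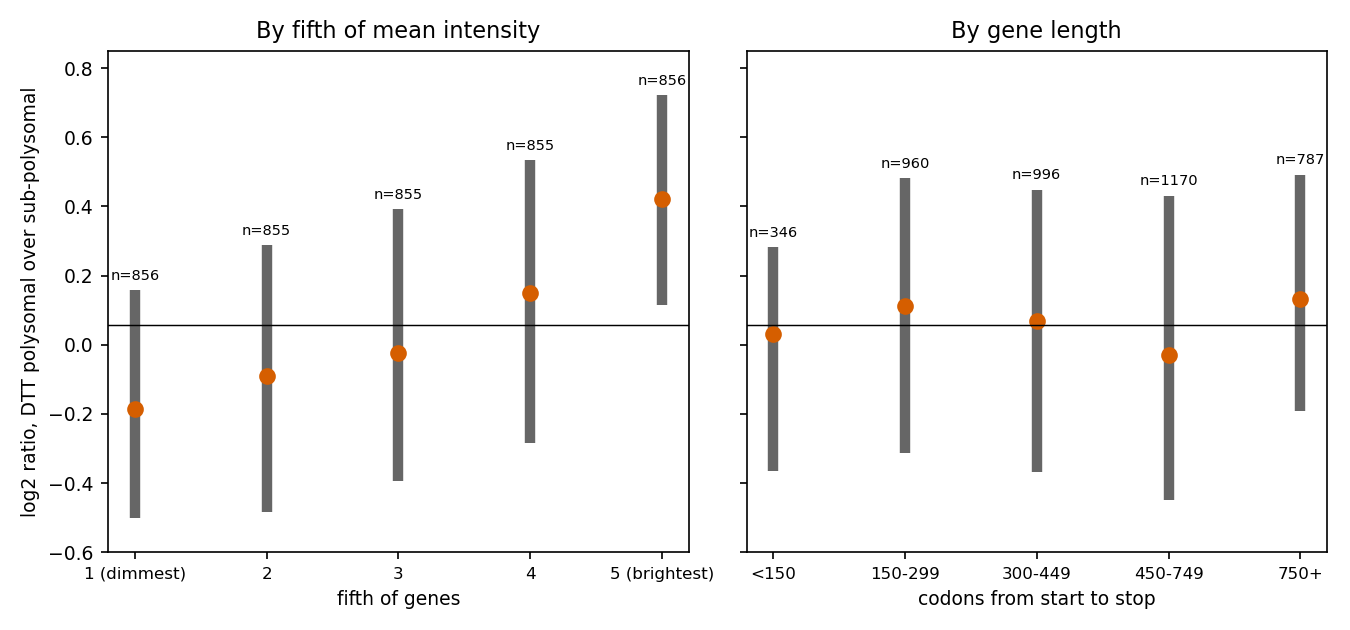
Median (points) and quartiles (bars) of the log2 ratio of DTT polysomal over DTT sub-polysomal RNA in 5 bins of mean intensity (left) and by gene length in codons (right), with the number of genes above each bar. The medians run from -0.19 in the dimmest to 0.42 in the brightest bin, and stay between -0.03 and 0.13 over the length bins.

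The position of a probe set along its transcript also moved with the ratio. For ACT1 the control probe sets gave 1.13 at the 5' end, 1.07 in the middle and 0.77 at the 3' end. For SPT15, the TATA-binding protein gene, they gave 0.91, 0.60 and 0.28. The probe sets behind the gene values gave 0.46 for ACT1, below all its controls, and 0.93 for SPT15, above all its controls. The 3' to 5' intensity ratio of ACT1 was 1.48 in polysomal and 1.91 in sub-polysomal RNA, and that of SPT15 was 3.12 and 4.83. In both genes the ratio was higher toward the 5' end. Its part in the values of other genes was not tested.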

How the data were processed

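RNA from a polysomal and a sub-polysomal pool of DTT-treated cells was measured on 1 Affymetrix array each. The authors deposited 1 intensity for each probe set on a linear scale, and the trimmed means of the values are close to equal on both arrays. How probes were summarised is not stated in the labels or files used, and the array type was read from the run sheets. 9335 probe sets were read, and 6504 of them name 1 gene in the platform annotation, all found in the R64 gene table.

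Probe sets above each array's 40th percentile on both arrays were kept (4574), log2 values were centred on their median, and a gene's value was the mean of its probe sets. No test was possible with 1 array a group. Genes at least 2-fold apart were counted, and a list got a median from 4 measured genes. Python 3.11.15, pandas 2.3.3 and statsmodels 0.14.6 were used, with a lowess span of 0.3 for the loess scaling. The script was tested on simulated data. The members and lists were chosen with earlier results of these data known. Genes named are the 20 highest and 20 lowest among bright genes, the 3 highest and 3 lowest of a list and its members past 2-fold, and a set of marker genes; exceptions are given where they occur. Gene length in codons replaced protein length, and sequence features were not used here.

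Array depth was unknown beyond signal over background: 1 array a side limits the precision. Alternatives were another floor, scaling, choice of probe set or fold limit.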

Additional observations from a re-analysis of the deposited data

How the results depend on the processing

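The count of genes at least 2-fold higher in polysomal RNA, 188, was 366 with no floor, 90 with the floor at the 60th percentile, 59 with no centring, 108 under quantile scaling, 100 under loess scaling and 829 when centred on hybridisation controls. It was 4 at a 3-fold and 755 at a 1.5-fold limit. The count of genes lower, 179, was 438 with no floor, 95 at the 60th percentile, 379 with no centring and 34 on hybridisation controls, and 23 and 628 at the 3-fold and 1.5-fold limits. The cause was not tested beyond what each setting does by construction. Among 61 list medians, taken minus the all-gene median, hexose transporters, at 0.36, reversed to -0.039 under quantile and -0.041 under loess scaling. Those that moved were noncoding RNA (-1.94 with no floor), the oligosaccharyltransferase (-0.051 under quantile and -0.035 under loess scaling), small subunit ribosomal proteins (-0.12 and -0.14), large subunit ribosomal proteins (-0.096 under loess scaling) and glycolysis (0.15 under loess scaling). The other 599 list values kept their place within the spread between probe sets, as did all 50 of the length bins. No paired analysis was possible because the labels give no replicate numbers and each group has 1 array. The sequence feature alternatives were not run, since no sequences were used here. Leaving out a replicate was not possible either. Values near the floor are the least certain: the floors were 15.9 in polysomal and 22.6 in sub-polysomal RNA.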
